A study of Mus musculus with 6 samples.

Results

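Elastic fibers give tissues stretch and recoil. They consist of a core of cross-linked elastin laid down on microfibrils, thin filaments built from fibrillins, to which microfibril-associated glycoproteins, fibulins and emilins attach. Microfibrils also occur without elastin, hold latent TGF-beta in the matrix through its binding proteins, and in cartilage surround chondrocytes. The genes described here were taken by name as the fibrillins *Fbn1* and *Fbn2*, the microfibril-associated *Mfap2*, *Mfap4* and *Mfap5*, elastin (*Eln*), the fibulins *Fbln1*, *Fbln2* and *Fbln5*, and *Emilin1*. These are 10 of the 22032 gene identifiers in the deposited matrix, and each name matched 1 identifier.

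RNA-seq was measured in 6 samples of mouse knee cartilage, 3 embryonic and 3 adult. The embryonic cells came from E16.5 embryos, for which the labels give 16.5 weeks and no strain is given in the sources used here. The adult cells came from male B6 mice 2 months old. Chondrocytes of either stage were sorted as negative for alkaline phosphatase (ALP) and for the lineage markers CD31, CD45 and Ter119, and positive for BMPR1B, a bone morphogenetic protein receptor, so these are bulk measurements of a sorted population and not of whole cartilage. The samples are described as biological replicates, the number of animals in each is not given, and no agent or altered allele is named for either group.

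All levels are TPM values (transcript levels on a relative scale), which are scaled by gene length and add up to 1000000 in each sample, so that depth is not carried by the values and precision rests on the spread between 3 samples. Between 7314 and 7656 gene identifiers were listed at 0 in an embryonic sample and between 7570 and 8294 in an adult one. *Bmpr1b* was at 16.4 to 20.3 TPM in embryonic replicates, against 4.51, 18.5 and 13.4 TPM in adult replicates, and it did not pass the test (limma adjusted p = 0.199). *Alpl*, which encodes the ALP used to exclude cells, was at 14.4 to 17.9 TPM in embryonic replicates, against 32.7 to 38.6 TPM in adult replicates. It passed the test as higher in adult (log2 fold change 1.13, SE 0.213, limma adjusted p = 0.00292). The cartilage markers *Col2a1*, *Acan* and *Sox9* were at 392 TPM or more in all 6 samples. *Xist*, expressed from the inactive X chromosome, was at 207, 0.0164 and 78.5 TPM in embryonic replicates 1, 2 and 3 and at 0.303 TPM or less in the adult samples, so the embryonic replicates differed in sex composition. The Y-linked *Ddx3y* was at 0.138 TPM in embryonic replicate 1 and at 54.9 TPM or more in the other 5 samples.

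Of the 10 genes, 9 were lower in adult than in embryonic chondrocytes, none was higher, and *Fbln5* did not pass the threshold (limma with Benjamini-Hochberg adjustment over the 13125 genes that averaged 1 TPM or more, adjusted p under 0.05). Over all genes tested, 45.3% passed, 21.4% as lower and 23.9% as higher in adult. For the same 9 genes every adult value lay below every embryonic value, an order that 25.9% of all genes tested showed, while 30.7% of all genes and none of the 10 had every adult value above. The median log2 fold change of the 10 was -3.97, with a range of -8.71 to -0.24, beside 0.16 over all genes. The lower end is that of *Mfap2*, whose size is set by the pseudocount, and the median was -4.10 with a pseudocount of 0.1. All 10 passed the filter on low values and all 10 would have passed on the embryonic mean alone, whereas 8 would have passed on the adult mean. *Fbn2* and *Mfap2* were tested only because of their embryonic level, so the filter fixed the direction of their difference, though not the call. In bulk samples, fewer cells that express a gene and less of its RNA per cell cannot be told apart.

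**Figure D1:**
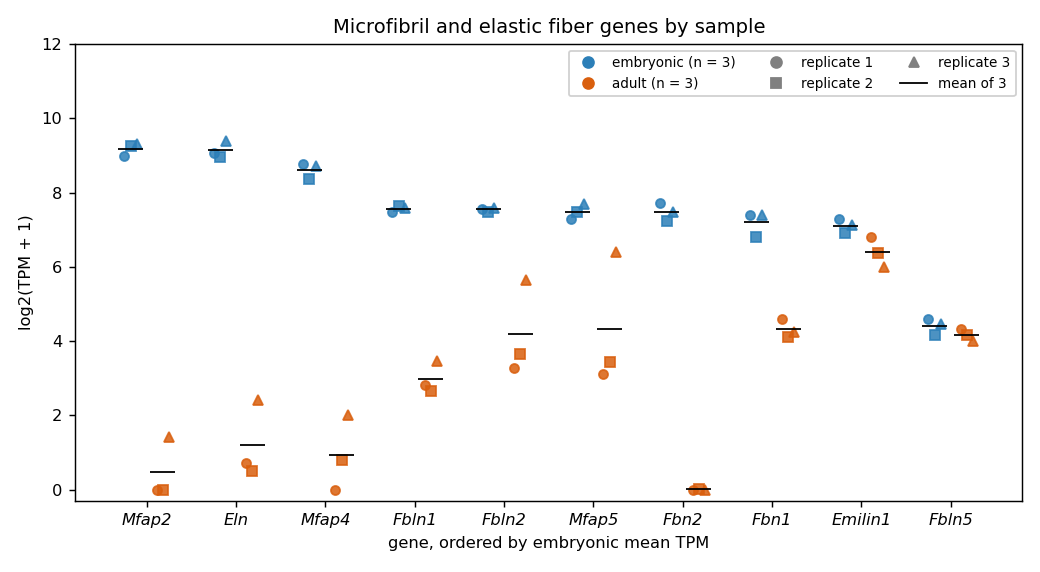
Level of each of the 10 genes on the log2(TPM + 1) scale in the 3 embryonic and 3 adult samples, 1 point per sample, with the mean of each stage. Adult points lie below the embryonic points for 9 genes and among them for *Fbln5*, and the adult points of *Mfap5* and *Fbln2* are spread further apart than their embryonic points.

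The fibrillins are the large glycoproteins that polymerise into the microfibril itself, *Fbn1* encoding the fibrillin that persists in adult tissues and *Fbn2* one known mainly from development. *Fbn1* (ENSMUSG00000027204, chr2:125300594-125507993, minus strand, GRCm38) was at 167, 110.4 and 168 TPM in embryonic replicates 1, 2 and 3 and at 23.3, 16.2 and 17.9 TPM in the adult ones. The stages did not overlap, and the lowest embryonic sample, replicate 2, still exceeded every adult sample. On the log2(TPM + 1) scale the mean went from 7.20 ± 0.35 to 4.32 ± 0.26 (SD, n = 3 each), a log2 fold change of -2.88 (SE 0.223, 95% confidence interval -3.39 to -2.38, limma adjusted p = 2.48e-05). The ratio of the mean TPM was 7.76. Of the 50-base stretches in the *Fbn1* transcripts, 19.7% also occur in an antisense gene, Gm9913, for which the matrix held no row under that name. The cDNA kit in the methods does not mark strand, while the labels name another library kit. Whether reads from that overlap can be assigned to either gene is therefore not settled here.

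*Fbn2*, on chromosome 18, was at 209.5, 148 and 178 TPM in embryonic replicates and listed at 0, 0.0165 and 0 TPM in the adult samples. Its call (limma adjusted p = 4.95e-07) is given without a fold change because most adult values are 0. Within the embryonic samples the fibrillins stood close together, with a log2 ratio of *Fbn1* to *Fbn2* of -0.32, -0.42 and -0.08. In the adult samples that ratio was 4.60, 4.08 and 4.24, values that are set by the *Fbn1* level and the pseudocount of 1. The mean ratio differed by 4.58 on the log2 scale between stages (exact two-sided permutation p = 0.1, the smallest that 3 samples against 3 can give, and 0.1 after adjustment over the 2 ratios tested), and by 7.77 with a pseudocount of 0.1. Since *Fbn2* was at or near 0 in every adult sample, this test adds nothing to the call of *Fbn2*.

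The *Mfap* genes encode small glycoproteins that bind microfibrils. *Mfap2* and *Mfap5* encode the related microfibril-associated glycoproteins MAGP-1 and MAGP-2, which bind fibrillin, and *Mfap4* encodes a fibrinogen-domain protein that binds elastin and fibrillin. *Mfap2* (chr4:141010418-141015984, plus strand) had the highest mean level of the 10 in embryonic chondrocytes, at 506, 605 and 629 TPM. In adult replicates 1 and 2 it was listed at 0 and in replicate 3 at 1.66 TPM (limma adjusted p = 1.06e-06). Its log2 fold change is the lower end of the range given above, a size set by the pseudocount.

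*Mfap4* (chr11:61485431-61488900, plus strand) was at 434, 326 and 421 TPM in embryonic replicates, against 0, 0.75 and 3.04 TPM in adult replicates, so that it was near or at 0 in the adult stage. Its mean log2(TPM + 1) was 8.61 ± 0.23 in embryonic and 0.94 ± 1.01 in adult samples. The log2 fold change was -7.67 (SE 0.447, limma adjusted p = 5.31e-06) and -9.25 with a pseudocount of 0.1, so its size depends on the scale at low values. The last exon of *Mfap4* overlaps the end of *Mapk7* on the opposite strand over 2.04% of its 50-base stretches, and *Mapk7* itself was at 21.1 to 37.9 TPM in all 6 samples.

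*Mfap5* (chr6:122505845-122529290, plus strand) was at 155, 178 and 206 TPM in the embryonic samples, against 7.66, 9.81 and 83.7 TPM in adult replicates 1, 2 and 3. Adult replicate 3 thus held 10.9 times the level of adult replicate 1 and yet lay below the lowest embryonic sample. The mean log2(TPM + 1) went from 7.49 ± 0.21 to 4.32 ± 1.81, a log2 fold change of -3.17 (SE 0.725, 95% confidence interval -4.82 to -1.52, limma adjusted p = 0.0074). Without adult replicate 3 the log2 fold change was -4.21, and without adult replicate 1 it was -2.57, with limma adjusted p between 2.16e-05 and 0.0355 over all alternatives.

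Elastin is the rubber-like protein of the fiber core, secreted as tropoelastin and cross-linked outside the cell. *Eln* (ENSMUSG00000029675, chr5:134702593-134747323, minus strand) was at 535, 494 and 666 TPM in embryonic replicates, against 0.644, 0.428 and 4.31 TPM in adult replicates. The highest adult value, in replicate 3, was 10.05 times the lowest one, and the stages were far apart. The mean log2(TPM + 1) was 9.13 ± 0.22 in embryonic and 1.21 ± 1.04 in adult samples, a log2 fold change of -7.92 (SE 0.448, 95% confidence interval -8.94 to -6.90, limma adjusted p = 4.44e-06). It was -8.52 when adult replicate 3 was left out and -8.87 with a pseudocount of 0.1. The ratio of the mean TPM was 315. Among its 50-base stretches 2.82% occur in other genes, mostly in the antisense gene *Gm30003*, which was listed at 0 in all 6 samples.

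The genes whose 6 log2(TPM + 1) values lay nearest to those of *Eln* were *Hist1h4k*, *Mfap4* and *Mfap2*, at Euclidean distances of 1.17, 1.28 and 1.37. *Hist1h4k* belongs to the replication-dependent histone H4 genes, whose near-identical copies can split reads, and it was at 382 to 459.9 TPM in embryonic replicates, against 0, 0 and 3.74 TPM in adult replicates.

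The fibulins are matrix glycoproteins with repeated EGF-like domains. *Fbln1* and *Fbln2* encode the larger, related members that bind fibronectin, proteoglycans and basement membranes, while *Fbln5* encodes a short fibulin needed for the assembly of elastic fibers. Since *Fbln1* showed a difference between stages beyond its replicate spread and *Fbln5* did not, the 100 bases before the start of each are shown, in the direction of transcription, from the RefSeq promoters of GRCm38.p6 (chr15:85205849-85205948, plus strand, and chr12:101819120-101819219, minus strand). Capitals mark the matches to the motifs searched, an E-box (CACGTG) in *Fbln1* and a GC box (GGGCGG, here on the opposite strand) in *Fbln5*.
Fbln1: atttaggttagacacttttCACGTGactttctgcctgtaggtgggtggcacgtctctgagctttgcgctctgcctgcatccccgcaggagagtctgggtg
Fbln5: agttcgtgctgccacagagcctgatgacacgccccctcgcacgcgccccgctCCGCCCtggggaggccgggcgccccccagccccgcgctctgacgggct

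Promoters of 6 of the 10 genes were in the table, those of *Fbn1*, *Mfap2*, *Fbln1*, *Fbln2*, *Fbln5* and *Emilin1*, and the 250 bases before each start were searched on both strands. For *Fbn1*, *Mfap2*, *Fbln2* and *Emilin1* the last 100 of these bases overlap GENCODE exons of the gene itself, and for *Fbn1* also of Gm9913. Those windows therefore hold transcribed sequence, whereas the printed bases of *Fbln1* and *Fbln5* overlap no exon. For *Mfap2*, *Fbln1* and *Fbln5* the table holds 2 promoters, of which the one furthest upstream was searched and, for the fibulins, printed. The E-box of *Fbln1* lies 81 bases before the start, and 6.02% of all 32851 promoters hold such a match. GC boxes were found for *Fbn1*, *Fbln2* and *Fbln5*, with 2 in *Fbln5*, beside 32.7% of all promoters. The letters CCAAT were present for *Mfap2* and *Fbln5*, beside 33.8% of all promoters. None of the 6 windows held TATAAA, which 12.4% of all promoters hold, and that of *Emilin1* held none of the 4 motifs. These matches are a description of the letters and not of sites in use.

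*Fbln1* (chr15:85205949-85286535, plus strand) was at 177, 198 and 189.9 TPM in embryonic replicates, against 6.05, 5.29 and 10.001 TPM in adult replicates. Both stages were narrow and lay far apart. The mean log2(TPM + 1) went from 7.56 ± 0.08 to 2.98 ± 0.43, a log2 fold change of -4.59 (SE 0.236, 95% confidence interval -5.12 to -4.05, limma adjusted p = 2.45e-06), and the ratio of the mean TPM was 26.5.

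*Fbln2* (chr6:91212455-91272540, plus strand) started from the same embryonic level, 188, 179 and 191 TPM, and was at 8.71, 11.5 and 49.1 TPM in adult replicates 1, 2 and 3. As for *Mfap5*, adult replicate 3 stood above the other adult samples and below all embryonic ones. The mean log2(TPM + 1) went from 7.55 ± 0.05 to 4.19 ± 1.28, a log2 fold change of -3.36 (SE 0.517, 95% confidence interval -4.53 to -2.18, limma adjusted p = 0.00102). It was -4.08 without adult replicate 3. The log2 ratio of *Fbln2* to *Fbln1* was 0.09, -0.15 and 0.01 in embryonic replicates, against 0.46, 0.99 and 2.19 in adult ones, a difference in means of 1.23 (exact two-sided permutation p = 0.1, the smallest possible, and 0.1 after adjustment over the 2 ratios). Every adult ratio was above every embryonic one, and the difference was 0.74 when adult replicate 3 was left out and 1.61 when adult replicate 1 was.

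*Fbln5* (chr12:101746565-101819055, minus strand) was at 23.3, 16.9 and 20.9 TPM in embryonic replicates, against 18.9, 16.9 and 15.2 TPM in adult replicates. The stages overlapped. The mean log2(TPM + 1) was 4.41 ± 0.22 in embryonic and 4.16 ± 0.15 in adult samples, and the log2 fold change of -0.24 (SE 0.246, limma adjusted p = 0.445) had a 95% confidence interval of -0.80 to 0.31, which still allows a decrease or a small increase. *Fbln5* had the lowest mean level of the 10 genes in the embryonic samples and the fifth highest in the adult samples.

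Emilins are elastin microfibril interface proteins, located between the elastin core and the microfibrils. *Emilin1* (chr5:30913402-30921277, plus strand) was at 154, 119 and 139 TPM in embryonic replicates, against 109.7, 81.9 and 63.0 TPM in adult replicates. The highest adult value came close to the lowest embryonic one. The mean log2(TPM + 1) went from 7.10 ± 0.19 to 6.39 ± 0.40, a log2 fold change of -0.71 (SE 0.209, 95% confidence interval -1.19 to -0.24, limma adjusted p = 0.0222). This call rests on few samples, since it was lost without embryonic replicate 1 (adjusted p = 0.0868, log2 fold change -0.63), embryonic replicate 3 (0.0711, -0.70), adult replicate 2 (0.054, -0.71) or adult replicate 3 (0.0554, -0.52), each in limma. It was also lost in limma without the variance trend (adjusted p = 0.0655). The ratio of the mean TPM was 1.62.

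In the order of mean TPM, *Mfap2* (580.3 ± 65.3, SD, n = 3) and *Eln* (565 ± 89.6) led in embryonic chondrocytes and lay within each other's spread, followed by *Mfap4* at 394 ± 58.9. The next 6 genes, *Fbln1*, *Fbln2*, *Mfap5*, *Fbn2*, *Fbn1* and *Emilin1*, had means from 188 down to 137 TPM, and each lay within the spread of its neighbour in that order. *Fbln5* was well below them at 20.4 ± 3.22 TPM. In adult chondrocytes the order was led by *Emilin1* at 84.9 ± 23.5 TPM. *Mfap5* (33.7 ± 43.3), *Fbln2* (23.1 ± 22.6), *Fbn1* (19.1 ± 3.68) and *Fbln5* (17.0 ± 1.89) came next and their values overlapped. *Fbln1* had a lower mean, 7.12 ± 2.53 TPM, though its values overlapped those of *Mfap5* and *Fbln2*. *Eln*, *Mfap4*, *Mfap2* and *Fbn2* had means of 1.79 TPM or less.

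The 10 genes together summed to 2549, 2375 and 2809 TPM in the embryonic samples and to 175, 143 and 248 TPM in the adult samples, a ratio of the means of 13.7. Their makeup differed as well. *Eln* held 20.8 to 23.7% of the sum in the embryonic samples, *Mfap2* 19.9 to 25.5% and *Mfap4* 13.7 to 17.0%, whereas in the adult samples *Eln* held 1.74% or less, *Mfap4* 1.23% or less and *Mfap2* 0.669% or less. *Emilin1* held 4.95 to 6.03% of the embryonic sum and 62.7, 57.3 and 25.4% of the sum in adult replicates 1, 2 and 3. *Fbln5* held under 1% of the embryonic sum and 10.8, 11.8 and 6.12% in the adult replicates. A share rises when the other genes fall, and neither *Fbln5* nor *Emilin1* was higher in TPM in the adult stage.

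**Figure D2:**
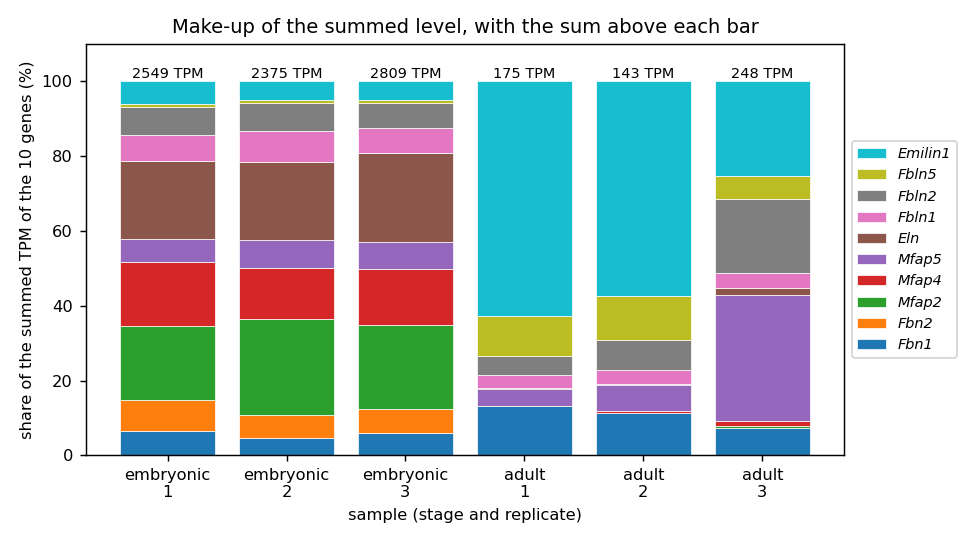
Share of each gene in the summed TPM of the 10 genes, in percent, stacked for each of the 6 samples. *Eln*, *Mfap2* and *Mfap4* lead in the 3 embryonic samples, *Emilin1* leads in adult replicates 1 and 2, and *Mfap5* has the highest share in adult replicate 3, at 33.8%.

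Adult replicate 3 was the highest adult sample for 6 of the 10 genes, *Mfap2*, *Mfap4*, *Mfap5*, *Eln*, *Fbln1* and *Fbln2*. Of these, *Mfap2*, *Mfap4* and *Eln* were at 4.31 TPM or less in every adult sample, so their order and ratios among adult samples rest on low values. Adult replicate 1 was the highest for *Fbn1*, *Fbln5* and *Emilin1*, and adult replicate 2 for *Fbn2* at a value close to 0. The highest adult value exceeded the lowest by 10.9 times for *Mfap5*, 10.05 times for *Eln* and 5.64 times for *Fbln2*, and by 1.25 to 1.89 times for *Fbln1*, *Fbn1*, *Fbln5* and *Emilin1*. Among the embryonic samples the corresponding ratios ran from 1.07 for *Fbln2* to 1.52 for *Fbn1*. Without adult replicate 3 the median log2 fold change of the 10 genes was -4.52, and 8 of the 10 passed the threshold, *Emilin1* being the one lost. Embryonic replicate 2 had *Ddx3y* and almost no *Xist*, like the adult samples. That it lay above all 3 adult samples for the 9 genes already follows from the stages not overlapping. The part of sex composition in the levels of the 10 genes was not tested.

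Genes of other cell types were set beside these values, because the sort need not remove every neighbouring cell. Of 10 tendon and fibroblast markers, all tested, 7 were lower in adult samples, *Thbs4* was higher, and *Mkx* and *Pdgfra* did not pass. The list summed to 10510 to 12196 TPM in the embryonic samples and to 991, 1426 and 1782 TPM in adult replicates 1, 2 and 3, a ratio of the means of 8.10, so it moved in the same direction as the 10 genes and was highest in the same adult sample. Among its defining genes, *Tnmd*, a tendon membrane protein, was at 262, 108 and 162 TPM in embryonic replicates, against 0, 2.11 and 0.703 TPM in adult replicates, and *Scx*, a tendon transcription factor, was at 32.6 to 44.2 TPM and at 0, 4.59 and 0 TPM. The collagens *Col1a1* and *Col3a1* carried most of the embryonic sum, with log2 fold changes of -3.75 and -4.17. Without them the other 8 genes summed to 997 to 1250.4 TPM in embryonic and 672, 511 and 749.9 TPM in adult replicates. Most of that adult sum was *Thbs4*, at 340, 242 and 394 TPM, and *Pdgfra*, at 219, 145 and 258 TPM in adult replicates 1, 2 and 3. *Dpt* (log2 fold change -3.28), *Pi16* (-2.65) and *Cd34* (-1.75) were lower in adult, as were *Tnmd* and *Scx*. The part of fibrous tissue cells in the levels of the 10 genes was not tested.

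The osteoblast list, which also holds *Col1a1*, summed to 4922 to 6007 TPM in the embryonic samples and to 566 to 1113 TPM in the adult samples, with 2 of its 7 genes lower and 4 higher in adult. *Col1a1* made up 98.8% or more of each embryonic sum. Without it the other 6 genes summed to 26.9, 60.8 and 36.3 TPM in embryonic replicates, against 396, 285 and 476 TPM in adult ones. Most of that higher adult sum was *Ibsp*, a bone sialoprotein gene, at 0.148, 29.6 and 5.07 TPM against 316, 235 and 308 TPM. Not all 6 lay higher: *Dmp1* was lower in adult (log2 fold change -2.92, SE 0.614, limma adjusted p = 0.00495) and *Sp7* did not pass (limma adjusted p = 0.45). *Bglap*, which encodes osteocalcin, was listed at 0 in every embryonic replicate, against 26.8, 15.8 and 83.9 TPM in adult replicates, so it was highest in adult replicate 3. *Bglap* and *Bglap2* were tested only because of their adult level, so the filter fixed the direction of their difference, though not the call. The mural and smooth muscle list summed to 355 to 379 TPM and to 181 to 197 TPM, with 4 of 6 tested genes lower and *Pdgfrb* higher, and *Myh11*, which defines smooth muscle, was at 1.05 TPM or less in every sample. Others of that list were present in the embryonic samples and lower in adult. *Mcam*, a surface protein of pericytes and smooth muscle, was at 100.3 to 112 TPM against 0, 2.95 and 6.30 TPM, *Rgs5*, a pericyte gene, at 22.8 to 28.6 TPM against 2.38 to 8.25 TPM, and *Acta2*, smooth muscle actin, at 4.75 to 15.4 TPM against 0.385 to 1.07 TPM. The part of mural and smooth muscle cells in the levels of *Eln* and the other genes was not tested.

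The endothelial list summed to 10.9 to 33.3 TPM in the embryonic and 3.79 to 13.0 TPM in the adult samples, with *Tek*, at 9.21 to 19.0 TPM against 0.889 TPM or less, lower among 3 tested. *Tek* was tested only because of its embryonic level, as were *Tnmd* and *Acta2* in the lists above. The leukocyte list summed to 5.67 to 13.7 TPM and 19.0 to 72.5 TPM, with *Cd68* higher among 3 tested, *Cd3e* at 0 in all samples and *Ptprc* at 2.29 TPM or less. The skeletal muscle list summed to 17.8 to 25.6 TPM and 0.80 to 15.0 TPM, and the erythroid list to 7.77 to 257 TPM, highest in embryonic replicate 1, and 11.9 to 43.6 TPM, with none of 4 tested genes called in either list. The cartilage list itself was higher in sum in the adult samples, 34038 to 36171 TPM against 19064 to 20437 TPM, but this rested on *Prg4*. Without *Prg4* the other 7 genes summed to 11413, 9778 and 8445 TPM in adult replicates 1, 2 and 3 and to 18870 to 20275 TPM in embryonic ones. That lower adult sum rested in turn on *Col2a1*, at 14154.5 to 15251 TPM in embryonic replicates, against 7084, 3166 and 3869 TPM in adult ones. The list had 4 of its 8 genes lower, among them *Col2a1* (log2 fold change -1.73), *Col9a1* (-5.48) and *Matn3* (-6.05). The 3 higher genes were *Prg4* (7.32), which encodes the lubricant of the joint surface, *Comp* (1.89) and *Sox9* (0.69).

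**Figure D3:**
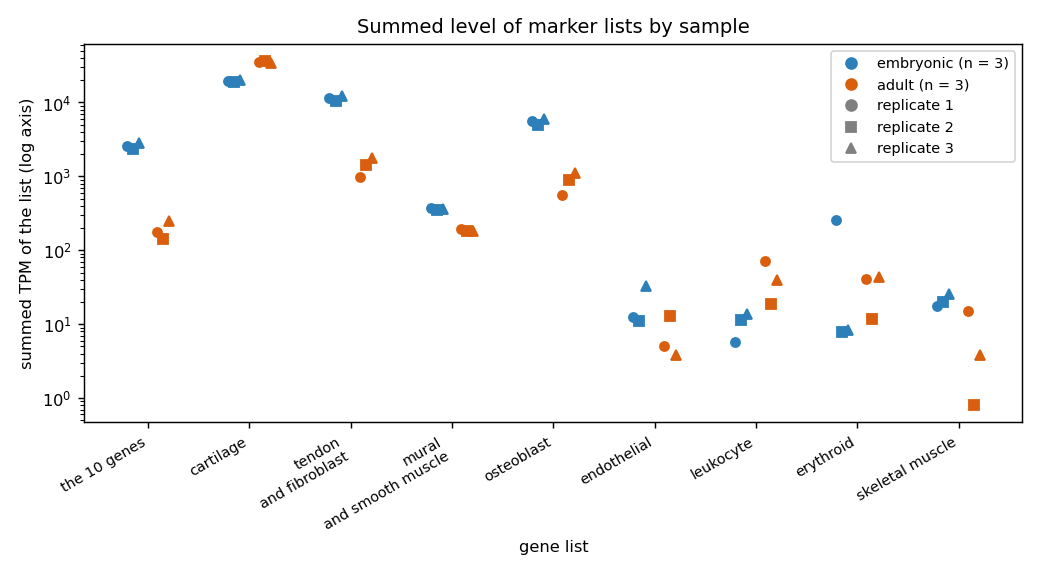
Summed TPM, on a log axis, of the 10 genes and of 8 marker lists in each of the 6 samples. The sums of the 10 genes and of the tendon and fibroblast, osteoblast, mural and skeletal muscle lists lie lower in all 3 adult samples, the osteoblast sum because of *Col1a1*. Adult replicate 3 is the highest adult sample for the first 3 of these and adult replicate 1 for the mural and skeletal muscle lists.

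The 10 genes were then placed among 46 other genes of the elastic fiber and microfibril, of which 40 passed the filter on low values. Of these, 18 were lower in adult, 9 were higher and 13 did not pass, with a median log2 fold change of -0.71. The lower genes are 45.0% and the higher ones 22.5% of the 40, beside 21.4% and 23.9% over all genes tested, so the share of higher genes was near that background, against which the small counts per list below are also to be read. Among the other fibulins and emilins 4 of 7 tested genes were lower and none higher. *Emilin3*, a further emilin, was at 45.1, 33.7 and 39.8 TPM in the embryonic and 0.0991, 0.308 and 3.95 TPM in the adult samples (log2 fold change -4.39, SE 0.562, limma adjusted p = 3.71e-04). *Hmcn1* (-3.01, SE 0.413), a hemicentin, and *Emilin2* (-1.87, SE 0.273) were also lower. *Efemp2*, which encodes fibulin-4, another short fibulin needed for elastic fibers, was at 83.1 to 100.4 TPM in the embryonic and at 53.9 to 109 TPM in the adult samples and did not pass (log2 fold change -0.19, SE 0.248, limma adjusted p = 0.563).

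The latent TGF-beta binding proteins are fibrillin relatives that attach latent growth factor to microfibrils, except for *Ltbp2*, whose product does not bind it, and all 4 passed the test, 2 as lower and 2 as higher in adult. *Ltbp4*, which also takes part in elastin assembly, was at 144, 149.5 and 135 TPM in the embryonic and 13.6, 21.2 and 25.9 TPM in the adult samples (log2 fold change -2.80, SE 0.23, limma adjusted p = 3.4e-05). *Ltbp1* was lower as well (-1.23, SE 0.215). *Ltbp2* (1.09, SE 0.152) and *Ltbp3* (1.08, SE 0.129) were higher, so that the summed level of the 4 genes was 498 to 570.0 TPM in the embryonic and 509 to 561 TPM in the adult samples.

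ADAMTS and ADAMTS-like proteins are secreted proteases and related glycoproteins, several of which bind fibrillin. In this list 4 of 7 genes were lower and 1 higher. *Adamts17* was at 27.0, 18.1 and 30.7 TPM in the embryonic and 0, 0.917 and 3.55 TPM in the adult samples (log2 fold change -3.64, SE 0.559, limma adjusted p = 0.001). *Thsd4*, which encodes ADAMTSL6, changed by -3.31 (SE 0.467) and *Adamtsl4* by -1.24 (SE 0.262). *Adamts6* was higher (1.26, SE 0.417, limma adjusted p = 0.0364), but not in 9 of 14 alternatives.

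Cross-linking of elastin is done by lysyl oxidases, and the list of these enzymes with the chaperone *Fkbp10* had 4 genes lower and 2 higher of 6. *Loxl1*, the lysyl oxidase-like enzyme known for elastic fiber upkeep, was at 107, 86.4 and 118 TPM in the embryonic and 4.49, 9.83 and 16.5 TPM in the adult samples (log2 fold change -3.36, SE 0.382, limma adjusted p = 1.98e-04). *Loxl4* went the other way, from 57.9, 63.1 and 45.5 TPM to 482, 624 and 576 TPM (3.32, SE 0.163, limma adjusted p = 1.86e-06). *Lox* itself, at 196 to 285 TPM and 287 to 349 TPM, passed narrowly as higher (0.45, SE 0.161, limma adjusted p = 0.0466) and was lost in 11 of 15 alternatives. *Fkbp10* (-1.17, SE 0.176) and *Loxl3* (-0.99, SE 0.251) were lower.

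Among matrix proteins that bind microfibrils, *Vcan*, which encodes the proteoglycan versican, was lower (log2 fold change -2.25, SE 0.31). *Dcn*, encoding decorin, was at 217, 241 and 326 TPM in the embryonic and 6348, 5026 and 5549 TPM in the adult samples (4.44, SE 0.171, limma adjusted p = 5.8e-07). *Fn1*, encoding fibronectin, on which fibrillin is laid down, was also higher (2.50, SE 0.136, limma adjusted p = 3.37e-06). *Hspg2* (-0.20, SE 0.147) and *Bgn* (0.15, SE 0.176) did not pass.

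Integrins that read the RGD motif are cell surface receptors for fibrillin and other matrix proteins, and 3 of 6 tested genes were lower and none higher. *Itga8* was at 103, 78.2 and 70.4 TPM in the embryonic and 7.11, 1.18 and 0.943 TPM in the adult samples (log2 fold change -4.69, SE 0.518, limma adjusted p = 1.69e-04), highest among the adult samples in replicate 1. *Itga5* (-1.21, SE 0.115) and *Itgb1* (-0.52, SE 0.114) were lower, whereas *Itgav* (0.04, SE 0.158) did not pass. *Itgb3* did not pass (-0.89, SE 0.576, limma adjusted p = 0.236), but passed without adult replicate 3 (-1.61, limma adjusted p = 0.00915).

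Of the proteases that can degrade elastin, 2 of 5 tested genes were higher and none was lower. *Mmp12*, macrophage metalloelastase, was at 2.36, 5.52 and 0.988 TPM in the embryonic and 17.7, 11.9 and 20.7 TPM in the adult samples (log2 fold change 2.30, SE 0.488, limma adjusted p = 0.00516). *Ctsk*, encoding the collagen- and elastin-cleaving cathepsin K, went from 80.1 to 102 TPM up to 270.1, 302 and 530.2 TPM (1.94, SE 0.241, limma adjusted p = 3.17e-04), again with the highest value in adult replicate 3. The macrophage marker *Cd68* was higher in adult beside these, at 17.2 to 33.3 TPM against 4.22 to 12.6 TPM. No other gene of the leukocyte list passed: *Csf1r* was at 1.54 TPM or less in every sample and *Lyz2* was not called (limma adjusted p = 0.0642). The part of macrophages in the protease levels was not tested. *Mmp2* did not pass (-1.10, SE 0.428, limma adjusted p = 0.0636), but passed without adult replicate 3 (-1.56, limma adjusted p = 0.0134).

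**Figure D4:**
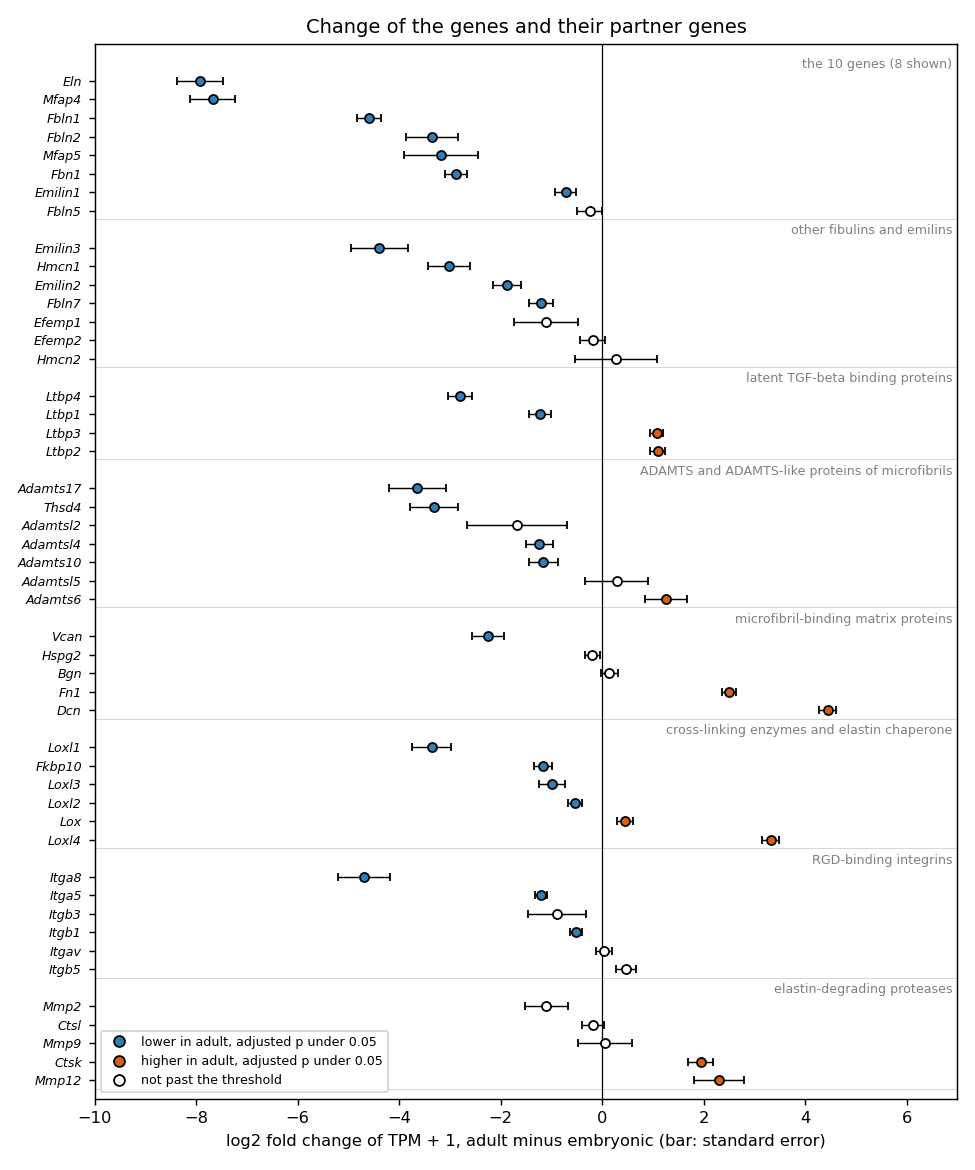
Log2 fold change of TPM + 1, adult minus embryonic, of 8 of the 10 genes and of the 40 tested partner genes by list, with bars for the standard error from limma (n = 3 against 3). *Fbn2* and *Mfap2* are not drawn because most of their adult values are 0. Of the 8 genes drawn, 7 are filled as lower in adult and *Fbln5* is open, while genes on either side of 0 that pass the threshold occur in the lists of latent TGF-beta binding proteins, ADAMTS proteins, matrix proteins and cross-linking enzymes.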

How the data were processed

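RNA was sequenced from sorted chondrocytes of 3 embryonic and 3 adult mouse samples, grouped by the deposited labels. By the methods, the authors made cDNA from random and poly(T) primers with a Nugen Ovation kit and a Kapa LTP library kit, where the labels name a Kapa mRNA-Seq kit. They sequenced single-end reads, mapped them to GRCm38 with RefSeq annotations, estimated levels with RSEM and deposited log2 values of TPM + 1 per gene. The aligner, the RSEM version and any filter are not given in the sources used here. TPM holds no depth, so no count model was fitted, and EBSeq, named in the methods, was not used here; limma took its place.

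Values were taken back to TPM for levels and sums. Gene names and coordinates were taken from GENCODE release M21 (21902 identifiers with a symbol, 130 without). Stages were compared with limma 3.58.1 in R 4.3.3 (lmFit, eBayes with a variance trend) on log2(TPM + 1), a pseudocount of 1, for the 13125 genes that averaged 1 TPM or more, with Benjamini-Hochberg adjustment over all of them and a threshold of 0.05. A fold change is therefore on the log2(TPM + 1) scale and understates that of low genes. The 2 ratios were compared by exact permutation over samples.

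The genes, the partner and marker lists and the tests were chosen with earlier results of these data known. All 10 genes are named; of each partner list, at most the 3 largest changes past the threshold in each direction, with others given by count or values; of the marker lists, genes above 1 TPM in most samples and defining ones at or near 0; and the 3 genes nearest in pattern to the gene with the largest fall not at 0 in most adult samples. *Mapk7*, *Gm30003*, *Xist*, *Ddx3y* and the further *Mfap* genes were added with their values known. The marker sums without *Col1a1*, *Col3a1* or *Prg4* were added after seeing the data. Transcripts were compared for shared 50-base stretches within GENCODE. Other settings tried were each sample left out, a replicate block, limma without trend, a stricter adjusted p of 0.01, quantile normalization, rescaling that left out the 20 highest genes, scaling by the median of ratios, a filter at 5 TPM or none, and 0.1 as the pseudocount. Tables and figures used Python 3.11.15, pandas 2.3.3, numpy 2.4.6, scipy 1.17.1 and matplotlib 3.10.9.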

Additional observations from a re-analysis of the deposited data

How the results depend on the processing

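No result changed direction under any alternative among the 10 genes, where 8 to 9 were called, both when 1 sample was left out and over all alternatives. The 6 values that lost the threshold were all of *Emilin1*. Of the partner genes 22 to 28 were called over all alternatives, 25 to 27 with 1 sample left out. The ratio of *Fbn1* to *Fbn2* differed by 4.44 to 4.70 and that of *Fbln2* to *Fbln1* by 0.74 to 1.61 on the log2 scale with 1 sample left out. Among single partner genes, 25 values lost the threshold (*Adamts10*, *Adamts6*, *Lox*, *Loxl2*, *Loxl3*) and 8 gained it (*Adamtsl2*, *Bgn*, *Itgb3*, *Itgb5*, *Mmp2*).

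Scaling moved the median log2 fold change of all genes from 0.16 to 0.03 (median of ratios), 0.25 (without the 20 highest genes) or 0.09 (quantile), and the split of all genes called from 3140 higher and 2809 lower to 2613 and 3238, 3509 and 2526, or 2792 and 2830. The median of the 10 genes was -4.11, -3.89 and -4.01 under the same settings. Without a filter 5548 of 16947 genes were called, and 3718 of 13125 at an adjusted p under 0.01.

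Replicate numbers are shared between the stages, but the correlation of same-numbered samples' deviations was -0.00884, -0.0169 and -0.0223, so the numbers do not pair the samples, and no sample correlated best with its own number. With the replicate number as a block, 9 of the 10 genes, 27 partner genes and 5430 of all genes were called. With 3 samples a stage and no depth in the values, levels near 0 and small differences such as that of *Fbln5* are poorly resolved.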

Other observations

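Other genes carry the name of microfibrillar-associated proteins and were not among the genes described above. They were chosen once their values had been seen. *Mfap1a* and *Mfap1b* encode spliceosome proteins. *Mfap1a* was at 16.1, 22.8 and 8.92 TPM in the embryonic and 28.4, 23.3 and 32.0 TPM in the adult samples (limma adjusted p = 0.0697). *Mfap1b* was at 43.1 to 59.5 TPM in the embryonic and 54.9 to 75.8 TPM in the adult samples and overlapped between stages (limma adjusted p = 0.133). *Mfap3* was at 22.9, 12.2 and 23.3 TPM against 30.8, 27.7 and 25.4 TPM (limma adjusted p = 0.147). *Mfap3l* was at 6.51, 4.76 and 9.20 TPM against 13.3, 22.5 and 20.8 TPM and was higher in adult (log2 fold change 1.35, SE 0.351, limma adjusted p = 0.0133). None of these 4 genes was lower in adult, whereas *Mfap2*, *Mfap4* and *Mfap5* were. Whether the products of *Mfap3* and *Mfap3l* belong to the elastic fiber was not examined. The contrast is therefore one between named genes and not between microfibril genes and others.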
